A study of Homo sapiens with 8 samples.

Results

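Open chromatin around 10 genes of the Notch pathway was described in LX-2, an established line derived from human hepatic stellate cells, the liver cells that lay down scar matrix. The genes were the receptors NOTCH1, NOTCH2, NOTCH3 and NOTCH4, the ligands JAG1 and JAG2, and the transcription factor genes HES1, HEY1, HEY2 and HEYL, and they are 10 of 19768 protein-coding genes in the annotation. Each gene was taken with its body and 50 kb on each side on the human build hg19, and every called peak in that window was kept. The windows held 442 of the 466883 peaks in the 8 lists. Peaks that overlapped were merged over libraries, and a merged region with peaks from at least 2 libraries was called a site. There were 75 such sites in the windows, of 75501 in the genome, and they held 418 of the window peaks, while 24 peaks occurred in 1 library only.

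The assay was ATAC-seq, in which a transposase inserts sequencing adapters where DNA is accessible. LX-2 cells of wild type genotype were cultured on a soft hydrogel matrix (about 2 kPa) or a stiff one (about 40 kPa), stiffnesses chosen to resemble normal and cirrhotic liver, and were collected after 2 or 4 days. The labels of the groups join the day (D2 or D4) and the matrix (soft or stiff), and there were 2 replicates of each of these 4 groups, none with an added agent. The study asked how matrix stiffness changes chromatin accessibility, and the comparison of stiff with soft on each day addresses that question here. The cells are 1 established line in bulk culture, so a larger share of cells with open chromatin and more open chromatin per cell cannot be told apart.

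Notch receptors sit in the cell membrane and are cut when a ligand such as JAG1 on a neighbouring cell binds them. The freed intracellular part enters the nucleus and joins the DNA-binding protein RBPJ, and together they switch on genes such as HES1 and the HEY genes, whose products are basic helix-loop-helix repressors. In liver, JAG1 and NOTCH2 are known for their part in bile duct formation, and Notch signalling has been linked to stellate cell activation and fibrosis.

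The lists held 29789 to 72840 peaks, and 1 library stood apart. Depth estimated from the peak values, in fragments per kb of genome, was 0.780 and 2.08 (D2 soft) and 2.32 and 2.19 (D2 stiff). It was 2.69 and 2.72 (D4 soft) and 3.15 and 2.87 (D4 stiff). On each day both stiff libraries were deeper than both soft ones, and all day 4 libraries were deeper than all day 2 ones. The part of depth in differences between groups was not tested beyond shortening the lists to equal length. D2 soft replicate 1 had the shortest list and the lowest depth, 0.780 against 2.08 to 3.15 in the other 7 libraries. Of all sites, 15.0% were missing in that library alone. Of the 75 sites around the Notch genes, 9 (12%) were missing in it alone, and 22 (29.3%) were found in every library, against 32.1% of all sites. A peak had to reach a q-value of 0.05 in its own library, so a site without a peak means no call at that depth and not closed chromatin. Among marker genes, 3 of 8 stellate cell and fibroblast markers (COL1A1, PDGFRB and ACTA2) had a promoter peak in every library, COL3A1, DES and DCN had one in none, and 0 of 5 hepatocyte markers had one in every library, with ALB, APOA1 and HNF4A in none. COL1A2 had one in 6 libraries (4 stiff and 2 soft), LRAT in 1, TTR in 2 and SERPINA1 in 1. Promoter peaks were also found in every library at CD14 and CD68, 2 of 4 leukocyte markers, but in none at PTPRC and SPI1. Of the endothelial markers KDR had one in 7 libraries, CDH5 in 4, TEK in 2 and VWF in none. Of the biliary and epithelial markers EPCAM had one in 6 (4 stiff and 2 soft), and KRT19, KRT7 and CDH1 had one in none. The part of other cell types in the results was not tested.

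Sequences are shown first at the places the results turn on, read from the GRCh37 genome, which has the coordinates of hg19. The first set is the 250 bases before the annotated start of 3 target genes, printed 5′ to 3′ on the strand of the gene, because their windows hold the letters that RBPJ is known to recognise. Capitals mark GTGGGAA or, on the other strand, TTCCCAC. The HES1 stretch is chr3:193853687-193853936 on the plus strand, that of HEY2 is chr6:126070528-126070777 on the plus strand, and that of HEYL is chr1:40105316-40105565 on the minus strand. None of them overlaps an annotated exon.
HES1: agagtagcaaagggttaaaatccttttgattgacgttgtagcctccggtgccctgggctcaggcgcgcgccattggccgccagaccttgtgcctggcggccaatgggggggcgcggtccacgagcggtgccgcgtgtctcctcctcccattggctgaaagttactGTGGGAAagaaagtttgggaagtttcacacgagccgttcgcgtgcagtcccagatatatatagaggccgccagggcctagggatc
HEY2: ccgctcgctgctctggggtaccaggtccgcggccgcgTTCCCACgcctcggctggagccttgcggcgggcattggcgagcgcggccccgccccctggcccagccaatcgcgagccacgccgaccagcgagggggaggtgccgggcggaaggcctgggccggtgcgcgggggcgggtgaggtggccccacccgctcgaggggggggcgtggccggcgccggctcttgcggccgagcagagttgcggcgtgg
HEYL: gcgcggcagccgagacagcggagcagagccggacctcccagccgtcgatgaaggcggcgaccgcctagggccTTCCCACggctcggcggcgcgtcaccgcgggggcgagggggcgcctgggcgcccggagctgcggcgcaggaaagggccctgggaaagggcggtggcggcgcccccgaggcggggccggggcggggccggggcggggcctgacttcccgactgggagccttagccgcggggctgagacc

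In HES1 the match began 85 bases before the start, in HEYL 178 bases and in HEY2 213 bases before it. HEY1 also had a match in its 250 bases, so that all 4 target genes held the letters, against 0 of the 6 receptor and ligand genes and 989 of 19490 protein-coding genes (5.07%). The stretch of HEY1 lay wholly inside its promoter site, found in 7 libraries. The HES1 and HEY2 matches also lay inside called sites, at chr3:193853435-193854028 and chr6:126069847-126071063. HEYL had no peak within 1 kb of a start in any library. CACGTG, an E-box bound by HES and HEY factors, and GGAATG, the TEAD motif, were in none of the 10 stretches and in 7.87% and 9.79% of all. TGACTCA, the AP-1 motif, was in that of NOTCH4 and in 3.06% of all. These are matches of letters on either strand, not measured binding.

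The second set is the 201 bases around the summit of 4 sites away from the starts. They are shown because these sites had some of the highest ranks of their windows, or because the single tested difference fell there. All 4 hold the AP-1 motif. The best ranked sites away from the start in the windows of NOTCH1, NOTCH4, JAG2, HEY2 and HEYL do not, and are not shown. Capitals mark the AP-1 motif (TGACTCA or TGAGTCA on the other strand) and the TEAD motif (GGAATG or CATTCC). All are printed on the plus strand. Sites are named by the distance of the summit from the annotated start of the gene. The stretches are chr1:120658749-120658949 for the site 46.6 kb upstream of NOTCH2, chr19:15321173-15321373 for that 9.5 kb upstream of NOTCH3, chr6:32223058-32223258 for that 31.3 kb upstream of NOTCH4, and chr3:193807460-193807660 for that 46.4 kb upstream of HES1.
NOTCH2 46.6 kb upstream: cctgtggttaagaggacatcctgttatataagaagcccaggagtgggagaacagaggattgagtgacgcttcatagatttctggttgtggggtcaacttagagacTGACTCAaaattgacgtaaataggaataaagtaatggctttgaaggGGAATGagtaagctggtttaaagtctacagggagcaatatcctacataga
NOTCH3 9.5 kb upstream: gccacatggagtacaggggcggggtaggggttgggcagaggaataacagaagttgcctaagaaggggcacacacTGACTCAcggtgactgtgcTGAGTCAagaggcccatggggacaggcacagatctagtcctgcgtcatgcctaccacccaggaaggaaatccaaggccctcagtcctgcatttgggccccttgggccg
NOTCH4 31.3 kb upstream: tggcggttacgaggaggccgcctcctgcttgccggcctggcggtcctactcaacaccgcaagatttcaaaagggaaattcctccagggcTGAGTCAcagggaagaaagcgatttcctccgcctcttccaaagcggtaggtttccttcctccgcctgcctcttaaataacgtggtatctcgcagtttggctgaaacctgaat
HES1 46.4 kb upstream: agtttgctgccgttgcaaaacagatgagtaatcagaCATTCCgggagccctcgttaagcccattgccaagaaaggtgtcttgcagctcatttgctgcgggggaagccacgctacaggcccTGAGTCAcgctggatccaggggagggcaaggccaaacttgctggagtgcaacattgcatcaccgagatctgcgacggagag

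The NOTCH3 stretch held 2 AP-1 matches, at bases 75 and 94, and the NOTCH4 stretch held 1, at base 90. Those of NOTCH2 and HES1 each held 1 AP-1 and 1 TEAD match. Over all 75 sites, the AP-1 motif was within 100 bp of the summit in 24 (32%), against 30.2% of all sites, and the TEAD motif in 16 (21.3%) against 19.1%. The RBPJ motif was in 5 (6.67%) against 4.43%, and the E-box in 4 (5.33%) against 3.33%. The median GC content of the stretches was 55.2% around the Notch genes and 48.3% over all sites.

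**Figure D1:**
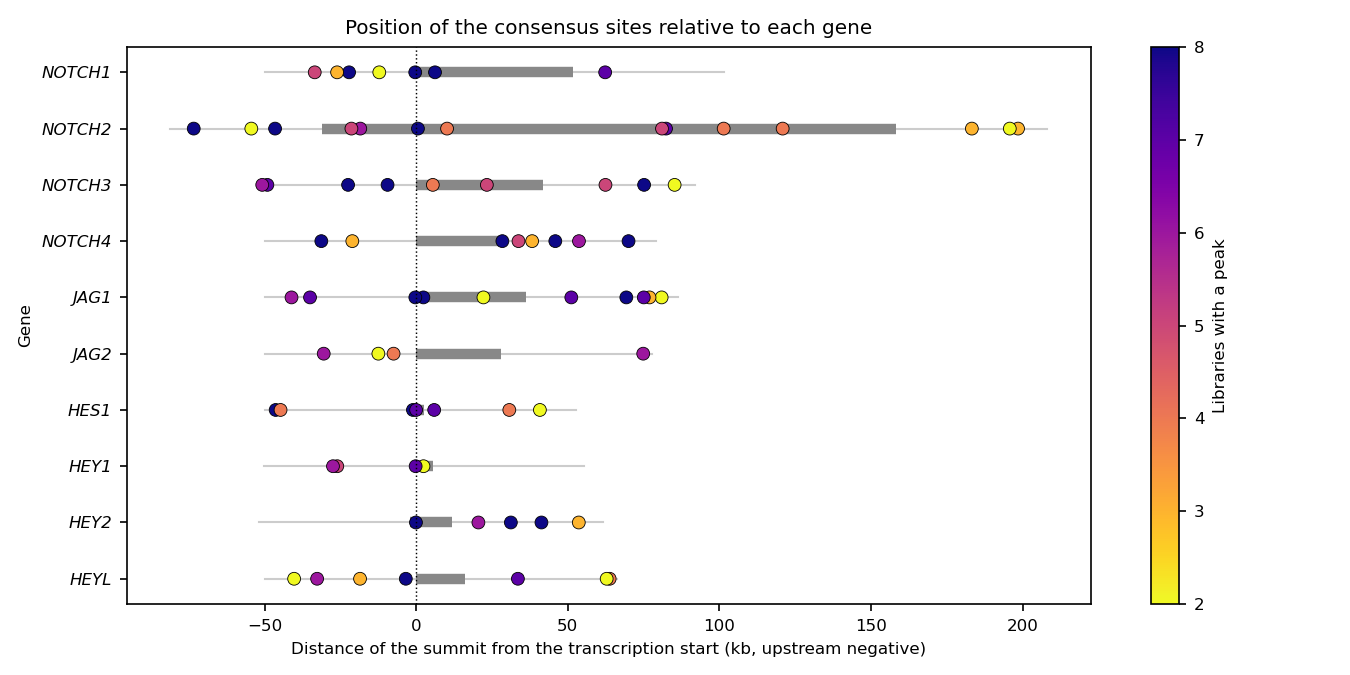
Position of the 75 sites around each gene, as the distance of the summit from the transcription start in kb, with upstream to the left of 0. The thick bar is the gene body, the thin line the window, and the colour of a point the number of libraries with a peak, from 2 to 8. NOTCH2 has the most sites (14), JAG2 and HEY1 the fewest (4 each), and 22 points stand for sites found in all 8 libraries.

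Sites were spread over every window, from 4 in those of JAG2 and HEY1 to 14 in that of NOTCH2, whose window of 289.2 kb is the longest. Per 100 kb, the windows held from 3.13 sites (JAG2) to 7.34 (JAG1), with a median of 5.43 over the 10 genes and 3.95 over all protein-coding genes. Of the 75 sites, 7 lay within 1 kb of a start of their own gene, 21 within 1 kb of a start of another gene, 24 outside protein-coding genes, and the rest in introns and exons. Sites found in every library were 5 of the 7 own promoter sites, 9 of the 21 at other starts and 6 of the 24 outside protein-coding genes. Over all sites, those found in every library were 8320 of 14733 at promoters of coding genes and 15926 of the 60768 others. JAG2 and HEY1 had no site found in every library. Own promoter sites of NOTCH1 (MIR4674 and NALT1), HES1 (ENSG00000289385), HEY1 (LINC01607) and HEY2 (HEY2-AS1) also lay within 1 kb of starts of other genes. A site is said to be at a start when it lies within 1 kb of one.

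A promoter peak, one within 1 kb of the start of a coding transcript, was called in every library for 5 of the 10 genes, namely NOTCH1, NOTCH2, JAG1, HES1 and HEY2. Of all protein-coding genes, 45.6% had one in every library. HEY1 had one in 7 libraries, all but D2 soft replicate 1. NOTCH3, NOTCH4, JAG2 and HEYL had one in none, as had 28.7% of all protein-coding genes. Each peak was placed by its percentile within its own list, with 100 for the highest, once by fold enrichment (the height over the local background, column 7) and once by −log10 p (column 8). With every list shortened to its best 29789 peaks by −log10 p, HEY2 alone had a promoter peak in every library, while JAG1 and HES1 had one in 7, NOTCH1 and NOTCH2 in 2 and HEY1 in 0. Both percentiles depend on the length of the list. Groups at a site of every library were therefore called overlapping or not from the rank of its fold enrichment among the 24246 sites found in every library. By fold enrichment all 5 genes stood below the median gene with a promoter peak in every library, at 72.5.

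**Figure D2:**
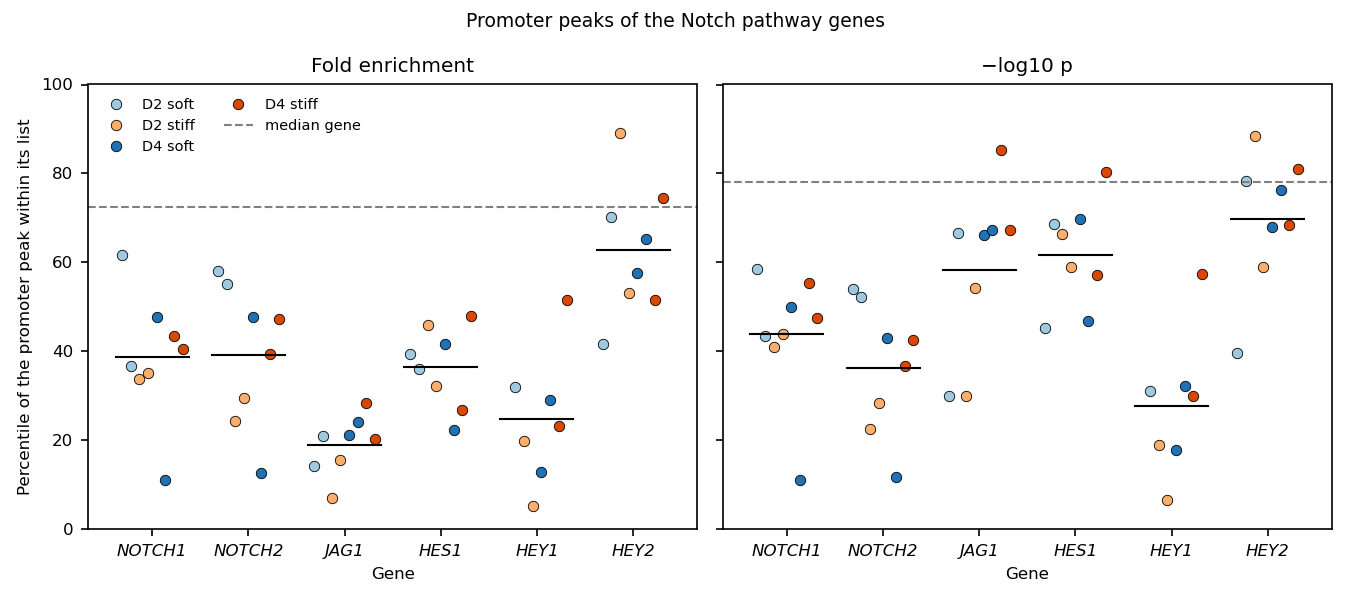
Percentile of the promoter peak within its list, by fold enrichment (left) and by −log10 p (right), for the 6 genes with such a peak. Points are libraries coloured by group, black lines are means over libraries, and the dashed line is the median of 9016 genes with a promoter peak in every library (72.5 and 78.0). JAG1 lies lowest by fold enrichment (mean 19.0), and HEY2 highest (mean 62.9).

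Among the receptors, NOTCH1 (ENSG00000148400, chr9:139388885-139440500, minus strand) had 7 sites, of which 3 were found in every library. Its promoter site at chr9:139439739-139441246 had fold enrichment percentiles of 61.6 and 36.6 (D2 soft), 33.8 and 35.1 (D2 stiff), 47.7 and 11.1 (D4 soft) and 43.3 and 40.5 (D4 stiff). Among the sites of every library, both stiff libraries ranked below both soft ones on day 2, by a limma effect of −0.76 ± 0.53 (SE) with an adjusted p of 0.756, and on day 4 the groups overlapped. The mean of 38.7 was above that of 7.22% of the 9016 genes, and the mean by −log10 p, 43.8, above that of 5.58%. The best ranked other site lay 22.2 kb upstream, outside protein-coding genes, at chr9:139462403-139463335. Its fold enrichment percentile was 26.4 and 72.8 (D2 soft), 61.3 and 51.0 (D2 stiff), 81.0 and 65.6 (D4 soft) and 78.6 and 69.0 (D4 stiff). Apart from the shallow library, this site ranked above the promoter in every library. An intronic site 6.2 kb downstream of the start was also found in all 8 libraries, at percentiles from 22.8 to 57.2.

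NOTCH2 (ENSG00000134250, chr1:120454176-120643366, minus strand), the receptor known from bile duct development, had 14 sites. Its annotated body reaches upstream of the main start, and close copies of part of the gene exist elsewhere in the genome, so peaks there depend on how the authors treated reads with several matches, which the sources used here do not give. The promoter site at chr1:120611031-120612268 had fold enrichment percentiles of 58.0 and 55.2 (D2 soft), 24.4 and 29.4 (D2 stiff), 47.6 and 12.7 (D4 soft) and 39.5 and 47.2 (D4 stiff). By rank among the sites of every library, both soft libraries were above both stiff ones on day 2, while on day 4 the groups overlapped. The mean, 39.3, was above that of 7.61% of genes, and that by −log10 p, 36.3, above 2.50%. The site 46.6 kb upstream, at chr1:120658440-120659327, ranked far higher. It stood at 49.7 and 79.3 (D2 soft), 80.0 and 78.7 (D2 stiff), 79.2 and 76.6 (D4 soft) and 97.8 and 83.4 (D4 stiff). On day 4 both stiff libraries were above both soft ones, by a limma effect of 0.78 ± 0.50 (SE, n = 2 against 2) with an adjusted p of 0.943. One more site in every library lay 73.4 kb upstream, at percentiles from 65.3 to 91.8.

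NOTCH3 (ENSG00000074181, chr19:15269849-15311806, minus strand), a receptor of smooth muscle and pericytes, had no promoter peak but 9 sites in its window. The site 9.5 kb upstream, at chr19:15321058-15321589 and outside protein-coding genes, was its best ranked. Its fold enrichment was 7.91 and 10.8 (D2 soft), 12.5 and 9.98 (D2 stiff), 13.5 and 7.75 (D4 soft) and 11.6 and 14.9 (D4 stiff), at percentiles from 62.2 to 96.7. The groups overlapped on both days. Inside the gene, 5.5 kb downstream of the start, an intronic site was found in all 4 day 4 libraries and in none of day 2, at percentiles of 8.82 and 15.1 in D4 soft and of 21.998 and 14.9 in D4 stiff. Of all sites, 5.79% were found in both soft libraries of day 4 and none of the soft ones of day 2. On the stiff matrix it was 5.35%. The share of all sites with both patterns together, as at this site, is not given here.

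NOTCH4 (ENSG00000204301, chr6:32162620-32191844, minus strand), a receptor best known from endothelium, had no promoter peak either. Its window lies in a gene-dense stretch with 10 other protein-coding genes. Its best ranked site by mean percentile, at chr6:32144942-32146419, lies within 1 kb of starts of AGPAT1 and RNF5. That site was among the strongest of its lists by −log10 p, with percentiles from 96.0 to 99.7, against 72.8 to 92.7 by fold enrichment. The site 31.3 kb upstream, at chr6:32222836-32223722, lies within 1 kb of a start of the non-coding gene TSBP1-AS1. Its fold enrichment was 8.89 and 9.65 (D2 soft), 10.3 and 12.8 (D2 stiff), 10.01 and 6.34 (D4 soft) and 15.8 and 19.2 (D4 stiff). On day 4 both stiff libraries lay above the 6 others, at percentiles of 99.4 and 99.9, and both soft ones at 77.9 and 43.6.

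The ligand JAG1 (ENSG00000101384, chr20:10618332-10654647, minus strand), which activates NOTCH receptors on neighbouring cells, had 10 sites, the most per 100 kb. Its promoter site at chr20:10654587-10655598 ranked low by fold enrichment, with 14.2 and 20.9 (D2 soft), 6.99 and 15.6 (D2 stiff), 21.2 and 24.1 (D4 soft) and 28.3 and 20.2 (D4 stiff). By −log10 p the same peaks stood at 29.9 and 66.7, 30.0 and 54.2, 66.2 and 67.2, and 85.2 and 67.3, in the same order. The 2 columns thus placed this promoter differently. Its mean was above that of 0.621% of genes by fold enrichment (19.0) and of 17.7% by −log10 p (58.3). A second site 2.4 kb downstream of the start, within 1 kb of the start of the gene ENSG00000270792, at chr20:10652024-10653348, stood at 39.3 and 37.2 (D2 soft), 80.7 and 57.2 (D2 stiff), 59.8 and 63.3 (D4 soft) and 40.3 and 44.9 (D4 stiff). Among the sites of every library, both stiff libraries ranked below both soft ones on day 4, while on day 2 the groups overlapped. The difference between the days was −1.52 ± 0.69 (SE) in limma, with an unadjusted p of 0.036 and an adjusted p of 0.920. The best ranked other site, 75.1 kb downstream at the start of SLX4IP, was found in 7 libraries at percentiles from 69.0 to 89.6.

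JAG2 (ENSG00000184916, chr14:105607319-105635161, minus strand), the other Jagged ligand, was the gene with the fewest peaks. It had no promoter peak in any library, 0 peaks at all in D2 soft replicate 1 and 1 to 4 in the others. Its best ranked site, at chr14:105560009-105560575 and 74.9 kb downstream, lies at the start of the non-coding gene LINC02298 and was found in 6 libraries, at percentiles from 21.98 to 79.6.

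Among the targets, HES1 (ENSG00000114315, chr3:193853937-193856521, plus strand) had 7 sites around a short gene. The site over its start, with the RBPJ letters printed above, was found in 7 libraries and not in D2 soft replicate 1. Its fold enrichment percentile was 36.1 (D2 soft replicate 2), 31.4 and 32.1 (D2 stiff), 41.6 and 22.4 (D4 soft) and 14.1 and 48.0 (D4 stiff), so the D4 stiff replicates enclosed the D4 soft ones. A second site 1.1 kb upstream, at chr3:193852441-193853184, was found in all 8 libraries, at 39.4 and 26.3 (D2 soft), 46.0 and 18.8 (D2 stiff), 10.7 and 3.8 (D4 soft) and 26.7 and 20.4 (D4 stiff). Both D4 soft libraries were the lowest of the 8. The day 4 minus day 2 difference on the soft matrix was −1.59 ± 0.51 (SE) in limma, with an unadjusted p of 0.0042 and an adjusted p of 0.594. The strongest site of the window was 46.4 kb upstream, at chr3:193807144-193807771, outside protein-coding genes. It stood at 83.0 and 76.2 (D2 soft), 82.5 and 93.0 (D2 stiff), 66.3 and 78.5 (D4 soft) and 89.1 and 80.1 (D4 stiff). By rank among the sites of every library the groups overlapped on both days, and the day 4 stiffness effect in limma was 0.45 ± 0.49 (SE) with an adjusted p of 0.966.

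HEY1 (ENSG00000164683, chromosome 8, minus strand) had 4 sites. Its promoter peak was weak, at fold enrichment percentiles of 32.0 (D2 soft replicate 2), 19.9 and 5.1 (D2 stiff), 12.9 and 28.9 (D4 soft) and 23.3 and 51.4 (D4 stiff). The D4 stiff replicates lay on both sides of one D4 soft value, so the groups overlapped. Its best ranked other site, 26.1 kb upstream, was found in 5 libraries, at percentiles from 18.4 to 85.2, with the 2 highest in D2 stiff.

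HEY2 (ENSG00000135547, chr6:126068810-126082415, plus strand) had the best ranked promoter of the 10 genes. Its site stood at 41.7 and 70.2 (D2 soft), 89.0 and 53.2 (D2 stiff), 57.7 and 65.2 (D4 soft) and 51.5 and 74.4 (D4 stiff). Replicates differed by more than the groups, which overlapped on both days. The mean was above that of 33.3% of genes by fold enrichment and, at 69.8, above that of 34.1% by −log10 p. The other strong sites of the window lay 31.2 and 41.3 kb downstream, at starts of NCOA7, and were found in all 8 libraries.

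HEYL (ENSG00000163909, chr1:40089107-40105315, minus strand) had no promoter peak, but a site 3.4 kb upstream, at chr1:40108344-40109264, was found in every library. Its fold enrichment was 5.04 and 9.32 (D2 soft), 8.72 and 11.6 (D2 stiff), 9.42 and 7.88 (D4 soft) and 7.91 and 13.4 (D4 stiff). The groups overlapped on both days.

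**Figure D3:**
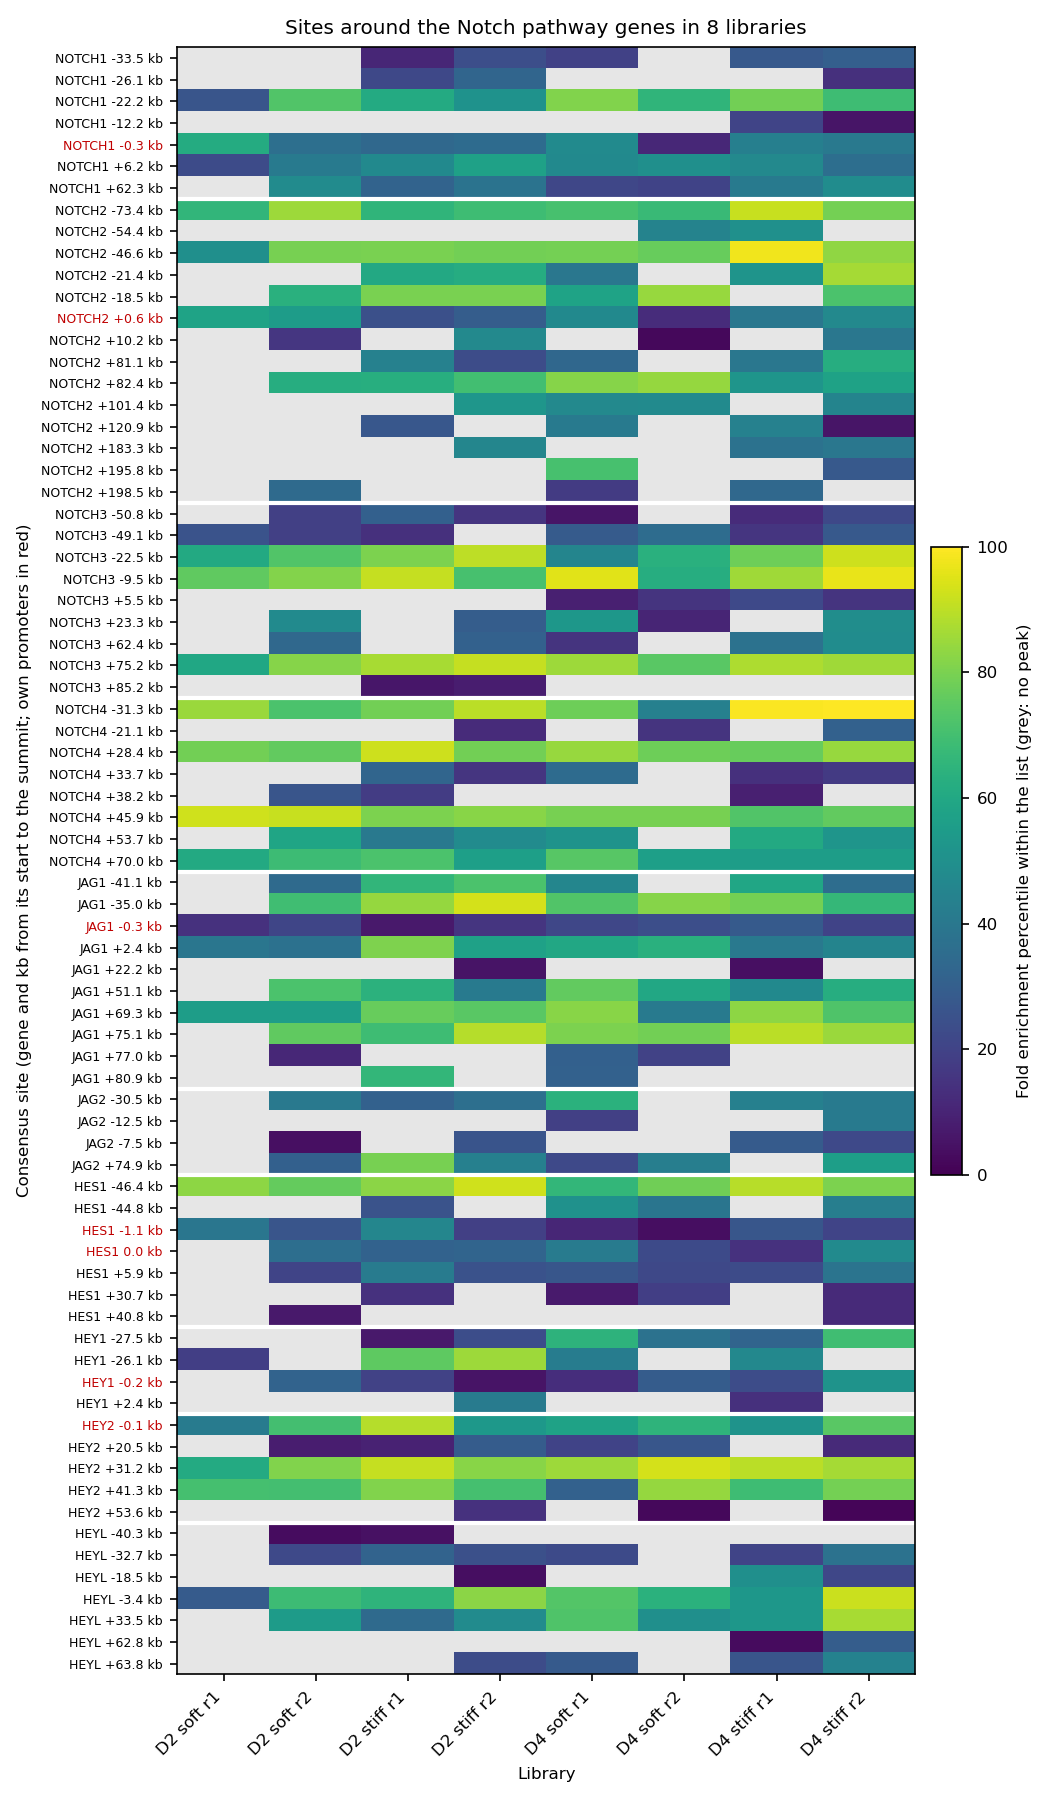
Percentile by fold enrichment of each of the 75 sites (rows, by gene and distance of the summit from the start in kb, own promoters in red) in each of the 8 libraries (columns, r1 and r2 for the replicates). Grey marks a library with no peak. In all 6 windows with a promoter peak, the best of the several other sites has a higher mean percentile than the promoter. A best of several is set against the promoter here, and the share of all genes with this order is not given. The first column (D2 soft replicate 1) has the most grey, with 24 of 75 sites found.

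Presence by group was read next, as a site found in both replicates of one group and in neither of the other. On day 2, 7 sites (9.33%) were found on the stiff matrix only, against 7.45% of all sites, and 0 on the soft matrix only (0.391% of all). They were 2 sites 33.5 and 26.1 kb upstream of NOTCH1, and 2 in introns of NOTCH2, 21.4 kb upstream and 81.1 kb downstream. Another lay 27.5 kb upstream of HEY1. The others lay 85.2 kb downstream of NOTCH3, at a start of ILVBL, and 33.7 kb downstream of NOTCH4, at a start of PBX2. The NOTCH2 site 21.4 kb upstream was the best ranked, with fold enrichment of 8.29 and 9.07 in D2 stiff, no peak in D2 soft, 6.37 in D4 soft replicate 1 and 7.77 and 12.2 in D4 stiff. Leaving out a library leaves 1 replicate to stand for its group. This is a looser rule, here and on day 4, so counts tend to rise and are read beside the share of all sites. Without the shallow library, 8 sites (10.7%, against 8.54% of all) were found on the stiff matrix only and 3 (4%, against 4.70%) on the soft matrix only. The stiff count was 24 without D2 soft replicate 2 (32.9%, against 29.7% of all), 14 without D2 stiff replicate 1 (19.4%, against 14.9%) and 11 without D2 stiff replicate 2 (15.1%, against 12.4%).

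On day 4, 5 sites (6.67%) were found on the stiff matrix only, against 6.72% of all sites, and 1 (1.33%) on the soft matrix only, against 1.31%. The 5 lay 183.3 kb downstream of NOTCH2, 7.5 kb upstream of JAG2, 18.5 kb upstream and 62.8 kb downstream of HEYL, and 12.2 kb upstream of NOTCH1. The NOTCH2 site was at a start of NOTCH2P1, and the HEYL site downstream at a start of PABPC4. The JAG2 site and the HEYL site upstream overlapped exons of NUDT14 and NT5C1A. The stiff count was 17 without D4 soft replicate 1 (23.6%, against 15.6% of all). The soft count was 8 without D4 stiff replicate 2 (11.4%, against 3.82%) and 2 without D4 soft replicate 2 (2.70%, against 2.82%). All 5 were of low or middle rank, with percentiles from 2.8 to 49.8 in the D4 stiff libraries. The site on the soft matrix only, in an intron of SLX4IP 77.0 kb downstream of JAG1, stood at 30.8 and 19.6 in D4 soft and was also present in D2 soft replicate 2, at 11.2. Over both days, 0 sites were found in all 4 stiff and no soft library, and 0 in the reverse, against 0.850% and 0.0172% of all sites. Between days, 5 sites (6.67%) appeared on the soft matrix on day 4 only and 3 (4%) on the stiff matrix, against 5.79% and 5.35%, and 0 and 1 on day 2 only, against 0.403% and 1.41%. The soft count of day 4 only was 19 without D2 soft replicate 2 (26.0%, as of all sites), 14 without D4 soft replicate 2 (18.9%, against 13.6%) and 8 without D4 soft replicate 1 (11.1%, against 10.2%). The stiff count of day 4 only was 8 without D2 stiff replicate 2 (11.0%, against 12.8%), 5 without D2 stiff replicate 1 (6.94%, against 9.53%) and 5 without D4 stiff replicate 1 (7.14%, against 7.68%). Sites in all stiff and no soft library were 4 without D4 soft replicate 1 (5.56%, against 2.11%), 2 without D2 stiff replicate 1 (2.78%, against 1.90%) and 1 without D4 stiff replicate 1 (1.43%, against 1.47%). None of these shares was tested, and 2 against 2 libraries allow no permutation p below 0.333.

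**Figure D4:**
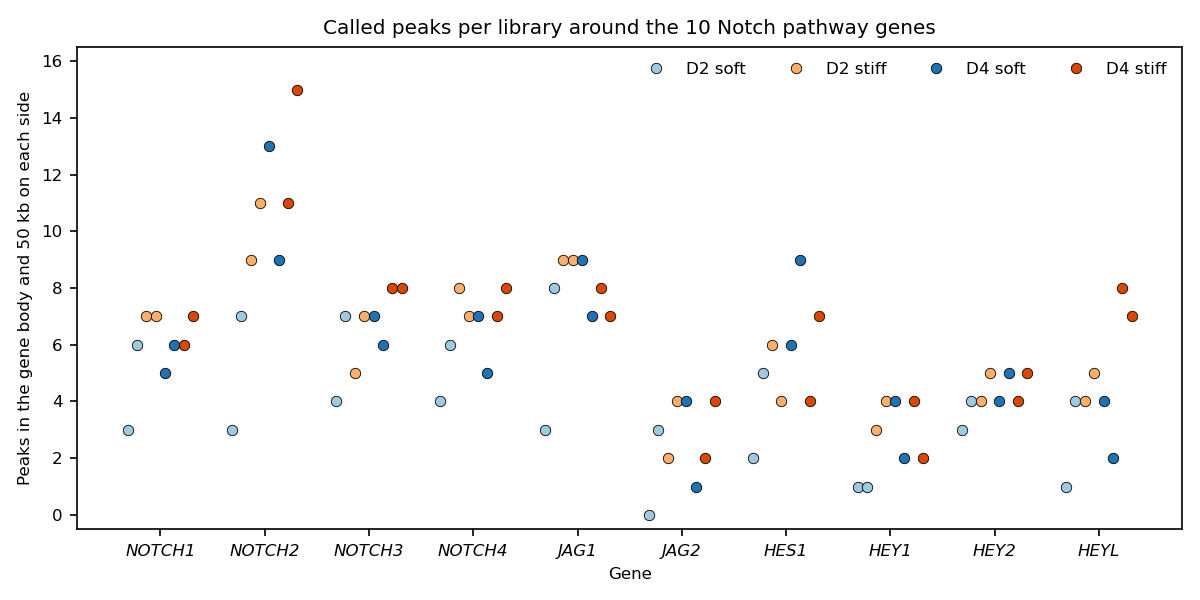
Number of called peaks in the window of each gene, with a point for each of the 8 libraries coloured by group. The stiff and soft libraries overlap for every gene, and D2 soft replicate 1 has the lowest or joint lowest number for all 10 genes.

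The number of peaks per window was compared between the 4 stiff and 4 soft libraries. It was higher on average in stiff for 9 of the 10 genes, all but HES1, as it was for 86.3% of all protein-coding genes with a peak. The shares were 9 of 10 and 87.6% with peaks of q up to 0.01, and 8 of 10 and 78.0% with 20 kb on each side. With all lists shortened to the 29789 best peaks by −log10 p, they were 7 of 10 and 43.4%. The largest mean differences were 3.5 for NOTCH2, with 3, 7, 13 and 9 peaks in the soft and 9, 11, 11 and 15 in the stiff libraries, and 3.25 for HEYL, with 1, 4, 4 and 2 against 4, 5, 8 and 7. For HES1 the soft libraries held 2, 5, 6 and 9 peaks and the stiff ones 6, 4, 4 and 7. The exact two-sided permutation p was 0.286 for NOTCH2, 0.0857 for NOTCH1, NOTCH4 and HEYL, and 1 for HES1, where 70 arrangements allow no value below 0.0286. Adjusted by Benjamini-Hochberg over all genes with a peak, the permutation p was 0.718 for NOTCH2 and 0.588 for NOTCH1, NOTCH4 and HEYL. None of the 10 genes had all stiff libraries above all soft ones, as 5.30% of genes had. The share of a list that fell in the windows was between 8.06 and 9.96 per 10000 peaks, lowest in the shallow library.

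**Figure D5:**
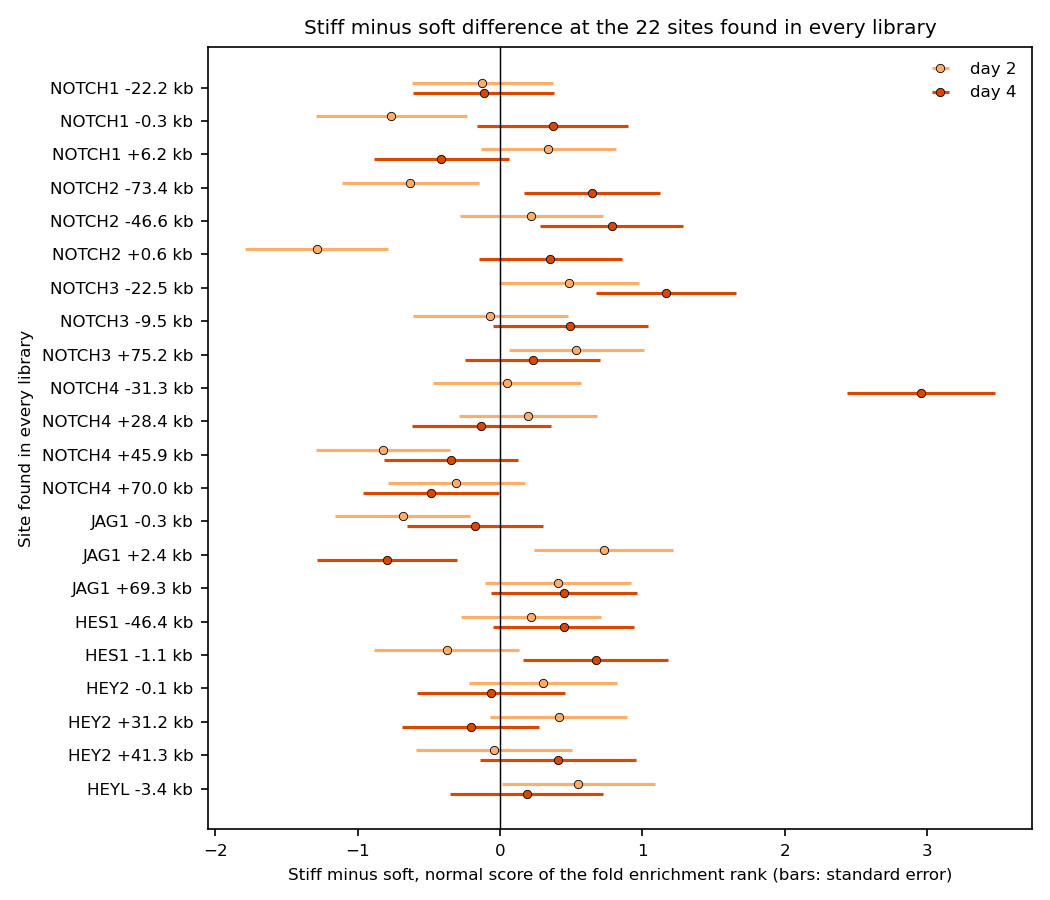
Difference between stiff and soft on day 2 (light) and day 4 (dark) at the 22 sites found in every library, in normal scores of the fold enrichment rank from limma, with standard errors as bars. The site 31.3 kb upstream of NOTCH4 on day 4 (2.96) stands apart, and the effects at the other sites lie between −1.29 and 1.17.

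At the 22 sites found in every library, the rank of the fold enrichment within a library was turned into normal scores and compared with limma, fitted over all 24246 such sites. On day 2, 0 of the 22 passed an adjusted p of 0.05, as against 1 site in the genome (0.00412%), and at an unadjusted p under 0.05 there were 0 higher (4.28% of all sites) and 1 lower (3.38%). This was the NOTCH2 promoter, lower on the stiff matrix by an effect of −1.29 ± 0.50 (SE), with an unadjusted p of 0.016 and an adjusted p of 0.558. On day 4, 1 of the 22 was called, of 2 sites in the genome (0.00825%). It was the site 31.3 kb upstream of NOTCH4, at the start of TSBP1-AS1, with an effect of 2.96 ± 0.52 (SE) and an adjusted p of 0.0496, just inside the threshold. The call was lost when ranks of −log10 p were used, with an effect of 1.62 and an adjusted p of 0.839. The call was also lost, at effects from 2.38 to 3.51, when any 1 of the 6 libraries other than D2 soft was left out, with an adjusted p from 0.105 without D2 stiff replicate 2 to 1 without D4 soft replicate 2. Its effect on day 2 was 0.05 ± 0.52 (SE), and the difference between the days was 2.91 ± 0.73 (SE), with an adjusted p of 0.804.

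At an unadjusted p under 0.05 on day 4, 2 of the 22 were higher on the stiff matrix (3.21% of all sites) and 0 lower (2.14%). Beside the site of NOTCH4, this was the one 22.5 kb upstream of NOTCH3, with an effect of 1.17 ± 0.49 (SE), an unadjusted p of 0.025 and an adjusted p of 0.920. Its fold enrichment was 6.79 and 9.78 (D2 soft), 10.5 and 12.9 (D2 stiff), 6.81 and 7.85 (D4 soft) and 10.5 and 13.5 (D4 stiff). Among the sites of every library, all 4 stiff libraries ranked above all 4 soft ones at this site, which lies at the start of a gene known only by its identifier (ENSG00000269635), and the mean over both days was 0.83 ± 0.35 (SE) with an adjusted p of 0.602. Such a separation was seen at 1 of the 22 sites (1.88% of all) and the reverse at 0 (2.12%). For the mean over days, 2 of the 22 were higher and 0 lower at an unadjusted p under 0.05 (4.40% and 3.32% of all). Of the 22 sites, 12 had an effect above 0 on day 2 and 13 on day 4, with medians of 0.12 and 0.29, against medians of −0.02 on both days over all 24246 sites. The promoters of NOTCH1, JAG1 and HEY2 and the HES1 site 1.1 kb upstream had effects from −0.76 to 0.30 on day 2 and from −0.18 to 0.67 on day 4, with adjusted p-values from limma of 0.756 or more.

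Within days, and by rank among the sites of every library, both stiff libraries lay above both soft ones at 5 of the 22 sites on day 2 (16.4% of all) and 5 on day 4 (18.2%). They lay below them at 5 (17.4%) and 4 (20.7%). Below on day 2 were the promoters of NOTCH1, NOTCH2 and JAG1, the site 73.4 kb upstream of NOTCH2, and the site at AGPAT1 and RNF5 in the NOTCH4 window, which was also below on day 4. At these promoters the shallow D2 soft replicate 1 ranked highest of all libraries, at 53.4, 49.2 and 6.73, against 11.5, 28.1 and 3.80 in D2 soft replicate 2. With 1 library left out, the day 2 effect ran from −1.40 to −0.14 for NOTCH1. It ran from −1.56 to −0.996 for NOTCH2 and from −0.886 to −0.455 for JAG1. Above on day 4 were the NOTCH2 sites 46.6 and 73.4 kb upstream, those 22.5 kb upstream of NOTCH3, 31.3 kb upstream of NOTCH4 and 1.1 kb upstream of HES1. The stiffness effect differed between days at an unadjusted p under 0.05 at 2 sites in the direction of day 4 (2.55% of all), the NOTCH2 promoter and the site 31.3 kb upstream of NOTCH4, and at 1 in the other (2.72%), the JAG1 site 2.4 kb downstream.

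Between days on the soft matrix, 0 of the 22 sites were higher on day 4 (4.03% of all) and 3 were lower (3.04%) at an unadjusted p under 0.05, and all 3 were promoters. They were the HES1 site 1.1 kb upstream and those of NOTCH2, by −1.28 ± 0.50 (SE), and NOTCH1, by −1.09 ± 0.53 (SE), with adjusted p-values from limma of 0.594 to 0.698. The HES1 and NOTCH1 sites also lie within 1 kb of starts of other genes. At each of the 3 promoters D4 soft replicate 2 held the lowest percentile of the 8 libraries. By rank among the sites of every library, the shallow D2 soft replicate 1 was the highest of the 8 at each. It stood at 29.0 for HES1, 49.2 for NOTCH2 and 53.4 for NOTCH1, against 5.77, 28.1 and 11.5 in D2 soft replicate 2. On the stiff matrix 1 site was higher (3.13% of all) and 1 lower (1.91%), with adjusted p-values of 0.909 and 0.925. They were the site 31.3 kb upstream of NOTCH4 and that 2.4 kb downstream of the JAG1 start.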

How the data were processed

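The authors trimmed reads with Trim Galore, aligned them to hg19 with Bowtie2 (2.4.1 in the submitters' processing notes) and called peaks in each library separately with MACS2 at a q-value of up to 0.05. Picard and bedtools (2.24.0) are also in those notes. Read filters, the shift for transposase offsets and caller options are not given in the sources used here. Fold enrichment, as the authors deposited it, is the ratio of the summit pileup to the local background, and the −log10 p and −log10 q deposited by the authors refer to that background. The score column deposited by the authors was not used. The other column deposited by the authors is the offset of the summit from the peak start. The values are comparable within a list only. Percentiles within lists describe each peak but depend on list length, so groups were compared by ranks among the sites found in every library, a scale for calling overlap chosen after seeing the data. The authors' DiffBind and DESeq2 comparison, which needs reads, was not repeated.

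From these files, peaks overlapping by 1 bp were merged over the 8 lists and kept as sites with at least 2 libraries. Genes came from GENCODE release 44 on GRCh37, whose coordinates are those of hg19. The depth estimate solves pileup and background from the fold enrichment and p-value, assuming the caller's Poisson model, and read totals were not used. Rank comparisons used limma 3.58.1 in R 4.3.3 with 4 group means and Benjamini-Hochberg adjustment over 24246 sites, after a test on simulated data, and peak numbers were compared by exact two-sided permutation. Effects are given in normal scores with standard errors. The study's methods call its sequencing replicates biological, without saying whether they are separate cultures, and p-values measure only the spread between these libraries. Named sites were each gene's promoter sites, its best ranked other site, sites called by limma, and for each day the 3 best ranked sites of one matrix only. Any other site in the text was chosen after its values were seen. The genes, lists and motifs were chosen with earlier results of these data known.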

Additional observations from a re-analysis of the deposited data

Results flagged for a closer look

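Among 64 groups of 4 stiff or 4 soft libraries checked for a single library far from the rest, 3 had one, and chance gives about 1 in 20. The NOTCH1 window held 6 peaks in D4 stiff replicate 1 and 7 in each of the other stiff libraries. The site 46.6 kb upstream of NOTCH2 stood at a fold enrichment percentile of 49.7 in D2 soft replicate 1, the shallow library, and at 76.6 or more in the other soft libraries. Among the sites of every library, where list length does not enter, these ranks were 39.9 and at least 56.2. In the NOTCH4 window, the site at starts of PPT2 and PRRT1 stood at 71.6 in D2 stiff replicate 1, and the next highest stiff library was at 56.3, or at 46.9 and 27.1 among the sites of every library.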

How the results depend on the processing

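Counts of sites of one group changed with the libraries used and with list length. Leaving out a library loosens the rule for its group, so these counts tend to rise by construction. Leaving out 1 library at a time gave 7 to 24 sites of the stiff matrix alone on day 2, 5 to 17 on day 4 and 0 to 4 on both days, and 0 to 3, 1 to 8 and 0 to 1 of the soft matrix alone. It gave 5 to 19 sites of day 4 only and 0 to 4 of day 2 only on the soft matrix, and 3 to 8 and 0 to 5 on the stiff matrix. With lists of equal length, there were 2 sites of the stiff matrix alone on day 2, 2 on day 4 and 1 on both days, and 1 and 0 of the soft matrix alone on days 2 and 4, with 1 site of day 4 only and 2 of day 2 only on the soft matrix and 1 and 2 on the stiff matrix. With 20 kb windows, there were 3 stiff-only sites on day 2, 3 on day 4 and 0 soft-only on day 4, 2 sites of day 4 only on the soft matrix and 0 of day 2 only on the stiff matrix. With summits within 100 bp, the day 2 only sites were 1 on the soft and 0 on the stiff matrix. Over all sites, limma called 0 on day 2 and 0 on day 4 with ranks of −log10 p, 0 and 1 with lists of equal length, 0 on day 2 with the day 2 libraries alone and 0 with q up to 0.01. Without 1 library it called 0 to 296 sites on day 2, most without D2 soft replicate 2, and 0 to 6 on day 4. Around the Notch genes, the number called on day 4 was 0 with ranks of −log10 p, 0 with equal lists and 0 to 1 without 1 library. The number of genes with a promoter peak in every library was 1 with equal lists. The exact permutation p for window peaks was 0.0286 for HEYL without D2 stiff replicate 1 and for NOTCH4 without D4 soft replicate 1, the smallest possible value. The cause was not tested. On percentiles within whole lists, a scale compared after seeing the data, both stiff libraries lay above both soft ones at 8 sites on day 2 and 7 on day 4, against 5 and 5 by rank among shared sites, and below at 3 and 4, against 5 and 4. Replicate numbers did not pair the libraries (correlations of replicate deviations from −0.0415 to 0.0837), and with a replicate block limma called 1 site on day 2 and 2 on day 4 over all sites, with 0 and 1 around the Notch genes, as without it. Of 554 alternative values of the 44 effects at sites found in every library, 519 kept their direction and 35 did not. Depth limits the absence of a peak, most of all in D2 soft replicate 1, and was lower on the soft matrix on each day and on day 2.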

Other observations

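Of 55 other genes of the pathway, 30 had a promoter peak in every library, 16 in some and 9 in none (DLK1, RFNG, RBPJL, TLE2, DTX1, DTX2, HES5, HES7 and NRARP), against 45.6% in every library and 28.7% in none over all protein-coding genes. By mean fold enrichment percentile the highest were MAML1 (92.8), a co-activator of the RBPJ complex, ADAM10 (88.1), a protease that cuts the receptor, and DLL1 (87.9), a Delta-type ligand. RBPJ itself stood at 78.7. Their median over the 30 genes was 63.7, against 38.7 for the 5 Notch genes above and 72.5 over all 9016 genes with a promoter peak in every library. By −log10 p these medians were 65.8, 58.3 and 78.0.

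The groups by role differed in number. Of the 9 genes for receptor cleavage, 6 had a promoter peak in every library and the other 3 in some. APH1A and PSEN2, parts of gamma-secretase, lacked one in D2 soft replicate 1 alone, and FURIN lacked one in 2 libraries. Of the 5 glycosylation genes, POGLUT1 had one in every library. POFUT1 had one in 7, LFNG in 6 (all 4 stiff and 2 soft libraries) and MFNG in 3, all of them stiff, at a mean percentile of 14.8. MAML3 had one in 5 libraries, 4 stiff and 1 soft, at 16.8. The share of all genes with such splits is not given here. Over all sites, presence on the stiff matrix only was also the more frequent. It was 7.45% against 0.391% for soft on day 2, and 6.72% against 1.31% on day 4. CREBBP and NEURL1 had one in 4 (2 stiff and 2 soft), and DLL3 and DTX3 in 6. SPEN, CIR1, NUMB, HES6 and DLL4 had one in 7, none of them in D2 soft replicate 1.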
